A study of Mus musculus with 12 samples.

Results

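The 10 genes described here mark contractile smooth muscle and the mural cells of vessels: Acta2, Tagln, Cnn1, Myh11, Myocd, Rgs5, Pdgfrb, Pdgfra, Cspg4 and Des. They were chosen by name. All 10 were found among the 40039 merged loci of the deposited transcript models, which carry no gene symbols, by matching the lengths of exons and introns to annotated genes. Of the 10, 9 could be tested by read counts and Tagln only by FPKM, because all its exon length was shared with another locus.

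Poly(A) RNA came from mouse embryonic stem cells of C57BL/6J strain in 4 groups of 3 libraries. Wild-type and Notch1-/- cells were each taken undifferentiated (day 0) and as embryoid bodies on day 6. Embryoid bodies are clusters of differentiating cells that form tissues of the early embryo. Here they began as hanging drops of 1000 cells under a cardiac differentiation protocol. Both genotypes were maintained with LIF at 1000 U/ml, either on fibroblast feeders from mouse embryos or on gelatin. The labels do not say which support a library had, how the Notch1 allele was made or how many clones were used. The design text calls the replicates biological, without saying whether they were separate cultures, differentiations or clones. The p-values therefore reflect the spread among these libraries alone, part of which may be technical.

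Smooth muscle cells contract through actin and myosin filaments, and their contractile genes are switched on by the serum response factor SRF, which binds CArG boxes, together with its coactivator myocardin. Pericytes and vascular smooth muscle, together called mural cells, are drawn to young vessels by PDGF-BB, the ligand of the receptor Pdgfrb. Notch signals from endothelium are known to promote mural cell differentiation. Several of these genes are not specific to mural cells: Acta2 and Tagln are also active in early mesoderm, the early heart and cultured fibroblasts, and Pdgfra marks paraxial and lateral mesoderm, primitive endoderm and fibroblasts.

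The sequences before the gene start are shown for Acta2, Cnn1 and Rgs5, which differed between genotypes on day 6. Windows were taken from the RefSeq promoter table (build GRCm38.p6, not the mm9 build of the models). They are given for 6 of the 10 genes, namely these 3 and Pdgfra, Cspg4 and Des. No window is given for Pdgfrb or Myocd, which also differed between genotypes on day 6. Each run covers the 250 bases before the annotated start, 5′ to 3′ on the gene's strand, and capitals mark CArG-like matches. The windows are chr19:34255374-34255623 (minus strand) for Acta2, chr9:22099003-22099252 (plus strand) for Cnn1 and chr1:169655251-169655500 (plus strand) for Rgs5.
Acta2: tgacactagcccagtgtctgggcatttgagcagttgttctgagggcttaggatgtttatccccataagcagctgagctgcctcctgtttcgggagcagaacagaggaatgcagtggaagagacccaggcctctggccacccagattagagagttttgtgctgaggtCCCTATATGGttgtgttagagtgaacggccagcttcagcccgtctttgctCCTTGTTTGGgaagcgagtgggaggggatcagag
Cnn1: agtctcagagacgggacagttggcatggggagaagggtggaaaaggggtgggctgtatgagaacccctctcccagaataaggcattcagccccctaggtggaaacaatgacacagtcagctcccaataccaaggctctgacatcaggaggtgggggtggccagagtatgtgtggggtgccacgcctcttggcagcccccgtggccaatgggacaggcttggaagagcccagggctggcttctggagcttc
Rgs5: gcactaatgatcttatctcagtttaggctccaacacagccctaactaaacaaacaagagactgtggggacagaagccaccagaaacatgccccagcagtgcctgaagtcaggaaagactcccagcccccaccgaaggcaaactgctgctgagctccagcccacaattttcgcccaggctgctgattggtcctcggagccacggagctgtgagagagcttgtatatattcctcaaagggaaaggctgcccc

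A CArG-like match was defined as the CArG box with at most 1 G or C among its 6 central bases. Both strands were searched. Acta2 held 2 such matches, CCCTATATGG at 84 to 75 bases before the start and CCTTGTTTGG at 34 to 25 bases before it. None of the other 5 windows held one. Among all 32851 promoter windows of this length 8.59% held a CArG-like match and 1.47% a strict CArG box, which no member's window held. The letters TGGGAA, the core bound by RBPJ, the DNA-binding partner of Notch receptors, occurred on the plus strand of Acta2 at 27 to 22 bases before the start. There they overlapped the nearer CArG-like match by 3 bases. Searched on both strands, TGGGAA occurred in 21.6% of all windows and TATAAA in 12.4%, and of the 6 windows only that of Acta2 held TGGGAA and none held TATAAA. These matches describe letters in a window and are not binding sites shown by these data.

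Expression is given as CPM, the field's usual depth-scaled count, here with TMM-scaled library sizes, and group values are mean ± SD with n = 3 libraries. Changes are log2 values from edgeR's quasi-likelihood test with their standard errors (SE), and a gene was called at a Benjamini-Hochberg adjusted p under 0.05 over all 23991 loci tested. The libraries held 100637179 to 134662426 counts. Notch1 itself had 24.7 to 61.6 CPM in the 6 wild-type libraries and 3.80 to 6.80 CPM in the 6 Notch1-/- libraries. Of 10 pluripotency genes 8 were tested. All 8 fell in the wild type, with summed levels of 2619 to 3304 CPM before and 516 to 699 CPM after differentiation. In Notch1-/- cells 6 fell, with summed levels of 2196 to 3562 CPM before and 780 to 1228 CPM after. On day 6, 2 of the 8 were higher in Notch1-/- cells (25%, with 13.7% of all loci higher) and 0 lower (14.4% of all loci). The 2 were Esrrb and Klf5, by 0.99 and 0.56 on the log2 scale. A list of 28 fibroblast genes, of which 25 were tested, served as a gauge of feeder RNA at day 0. Its summed level was 2405, 1495 and 4994 CPM for libraries 1, 2 and 3 of the wild-type stem cells, and 871, 2283 and 3432 CPM in the Notch1-/- ones. On day 6 it was 1493 to 1937 CPM in the wild type and 196 to 239 CPM in Notch1-/- cells. Over differentiation 1 of the 25 rose and 17 fell in the wild type, and 0 rose and 24 fell in Notch1-/- cells. None of the 25 genes was at 0 in all 12 libraries.

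**Figure D1:**
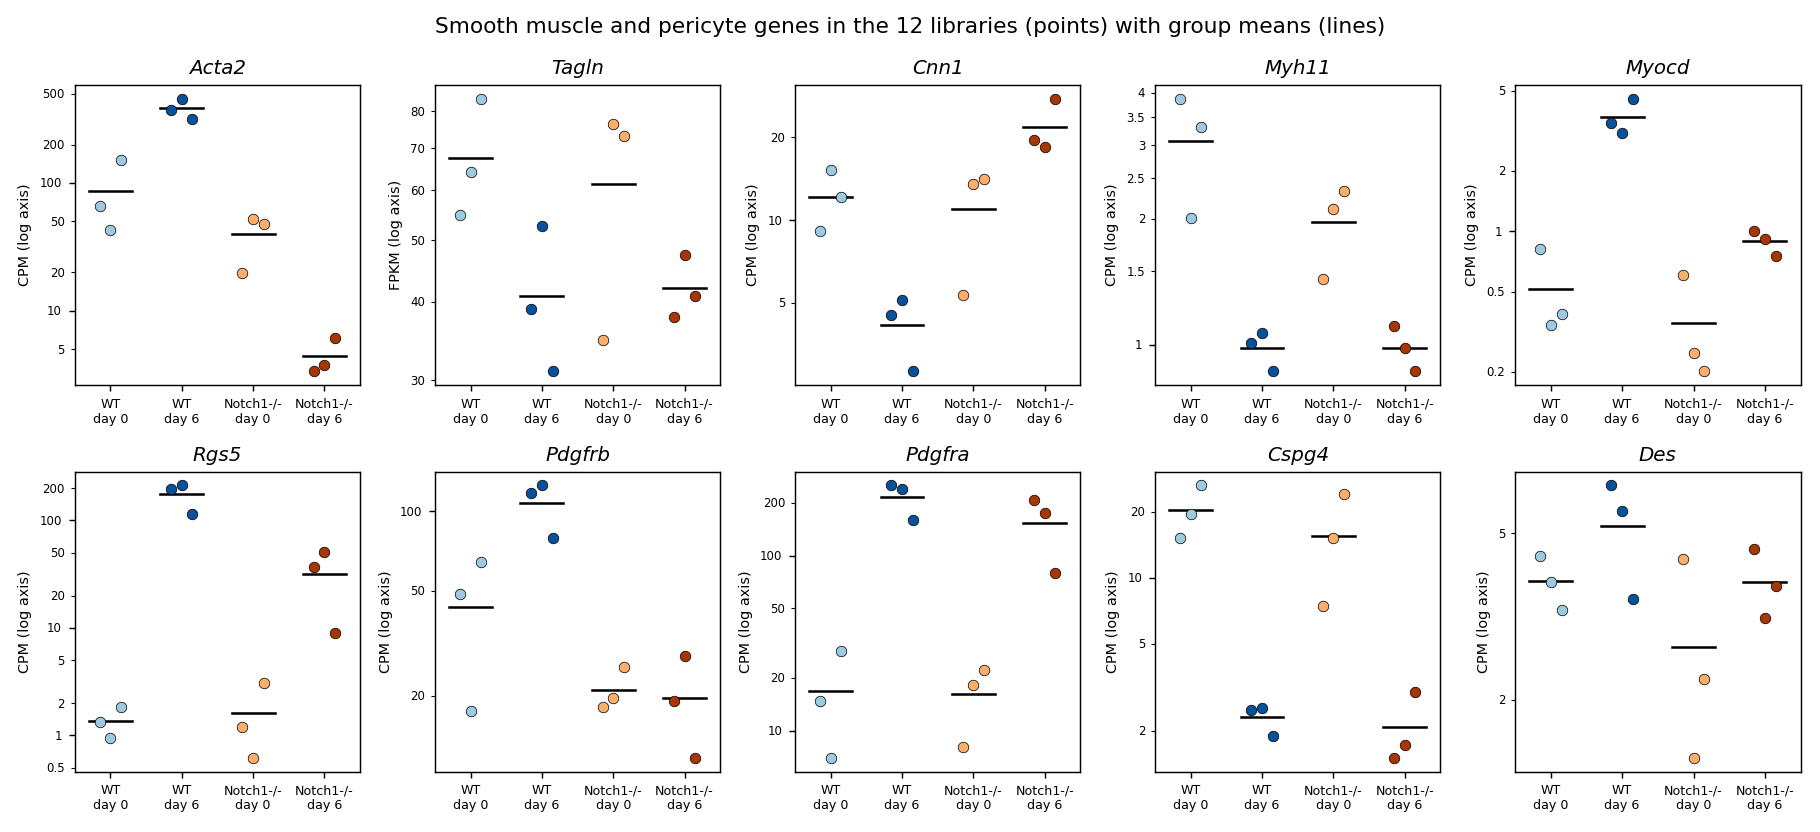
Level of each of the 10 genes in the 12 libraries, on a log axis, as CPM (Tagln as deposited FPKM). Points are libraries 1 to 3 of each group from left to right and lines are group means. Acta2 ran from 319 to 458 CPM in wild-type embryoid bodies and from 3.35 to 6.13 CPM in Notch1-/- ones.

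In wild-type cells, Myocd, Acta2, Rgs5, Pdgfra and Pdgfrb were higher on day 6 than on day 0. The late contractile genes Cnn1 and Myh11 and the proteoglycan gene Cspg4 were lower. Day 0 levels of any of these genes may include RNA of feeder fibroblasts, whose part in the changes was not tested. Of the 9 tested genes 5 rose, where 18.4% of all loci did, and 3 fell, where 24.7% of all loci did. Des was not called. The median change of the 9 was 1.30 and that of all loci -0.12. In bulk RNA, fewer cells of a type and less RNA per cell cannot be told apart.

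The same step in Notch1-/- cells gave another profile. Rgs5, Pdgfra, Myocd and Cnn1 rose (4 of 9, with 17.2% of all loci rising), and Cspg4, Acta2 and Myh11 fell (3 of 9, with 18.7% of all loci falling). Pdgfrb and Des were not called. The median of the 9 was 0.51 against -0.02 for all loci. With upper quartile scaling the share of higher loci among all calls went from 47.8% to 37.1% here, and from 42.7% to 33.0% in the wild type.

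**Figure D2:**
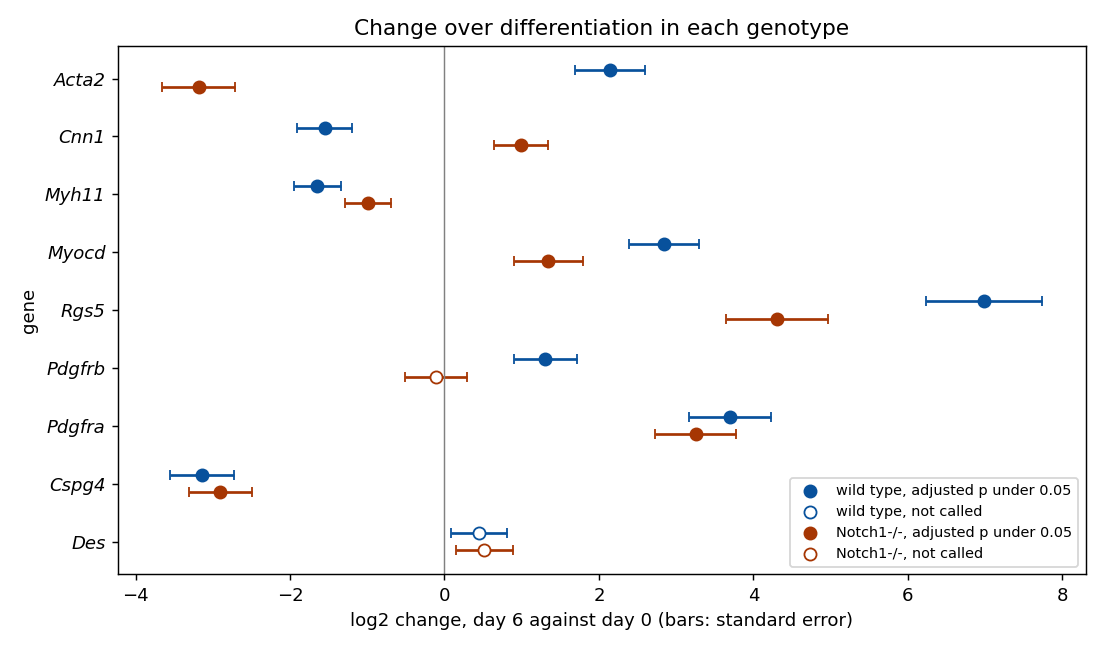
Change from day 0 to day 6 on the log2 scale for the 9 genes tested by counts, in wild-type (blue) and Notch1-/- cells (brown). Bars are standard errors and open points were not called. Acta2 (2.14 and -3.18) and Cnn1 (-1.55 and 0.99) moved in opposite directions.

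Acta2 encodes smooth muscle alpha-actin, the thin-filament actin of the contractile apparatus (XLOC_018473, mm9 chromosome 19, 34314827 to 34330342, minus strand). Libraries 1, 2 and 3 of the wild-type stem cells gave 66.2, 42.9 and 152 CPM, and those of the wild-type embryoid bodies 375, 458 and 319 CPM. The Notch1-/- stem cells gave 19.9, 52.5 and 47.9 CPM and the Notch1-/- embryoid bodies 3.35, 3.75 and 6.13 CPM. All wild-type embryoid bodies lay above, and all Notch1-/- ones below, every stem cell library of either genotype.

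Acta2 rose by 2.14 (SE 0.45, adjusted p = 0.00217, edgeR) in the wild type and by 2.81 without wild-type day 0 library 3. It fell by 3.18 (SE 0.47, adjusted p = 0.000317, edgeR) in Notch1-/- cells. The difference between these changes was -5.33 (SE 0.65, adjusted p = 0.000415, edgeR), and -5.99 without wild-type day 0 library 3. On day 6 the Notch1-/- level was 87.0-fold lower (log2 -6.44, SE 0.55, adjusted p = 7.85e-06, edgeR). At day 0 the difference was -1.12 (SE 0.44) and was not called (adjusted p = 0.122, edgeR). It was -0.45 without wild-type day 0 library 3, whose fibroblast list was the highest of all.

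The summed fibroblast list moved with Acta2 in part of the libraries. At day 0 both were highest in wild-type library 3 and lowest in Notch1-/- library 1. On day 6 the fibroblast list was also lower in Notch1-/- than in wild-type libraries, with 12 of its 25 genes called lower, 2 called higher (Thbs2 by 2.89 and Thy1 by 1.402) and the others not called. Col1a1 (734 against 28.4 CPM) and Postn (137 against 0.958 CPM), which mesenchyme also expresses, were among the lower genes, and such abundant genes weigh most in the sum. Over differentiation in the wild type, Lox went from 217 to 1.32 CPM and Bgn from 207 to 2.73 CPM. Col1a1 went from 504 to 734 CPM, which was not called. The list was thus not of 1 pattern, and its sum on day 6 may not gauge feeder RNA. The part of fibroblast RNA in these values was not tested.

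Acta2 has close relatives whose reads may be shared. Actg2, the enteric smooth muscle actin, went from 3.08 ± 2.22 to 0.590 ± 0.174 CPM in the wild type and from 1.51 ± 0.937 to 0.0910 ± 0.0654 CPM in Notch1-/- cells (changes of -2.38 and -4.03, adjusted p = 0.0101 and 0.0012, edgeR). Acta1, the skeletal muscle actin, had 0.726 to 1.58 CPM in wild-type embryoid bodies and 7.64 to 9.28 CPM in Notch1-/- ones. Actc1, the cardiac actin, had 1.85 ± 1.15 and 6.57 ± 2.09 CPM there, a difference that was not called (1.83, adjusted p = 0.0925, edgeR). Of the 4 actins, Acta2 and Actg2 were lower and Acta1 higher in the Notch1-/- embryoid bodies.

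Cnn1 encodes calponin, an actin-binding protein that restrains the myosin motor in smooth muscle (XLOC_036327, chromosome 9, 21903434 to 21916172, plus strand). It had 9.11, 15.2 and 12.2 CPM in wild-type stem cells and 4.51, 5.11 and 2.81 CPM in wild-type embryoid bodies. In Notch1-/- stem cells the values were 5.34, 13.6 and 14.1 CPM, and in Notch1-/- embryoid bodies 19.5, 18.4 and 27.7 CPM. Every Notch1-/- embryoid body library lay above all the other libraries of the series.

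The wild-type fall of Cnn1 was -1.55 (SE 0.36, adjusted p = 0.00411, edgeR). The Notch1-/- rise was 0.99 (SE 0.35) with an adjusted p = 0.0442 (edgeR), close to the threshold. That call was lost under upper quartile scaling (0.83), with only the 2 groups in the fit (0.97), and without any 1 of 8 libraries. These were Notch1-/- libraries 1 and 2 of day 0 and 1, 2 and 3 of day 6, wild-type library 3 of day 0 and wild-type libraries 1 and 2 of day 6, with values from 0.65 to 1.16. The difference between genotypes on day 6 was 2.40 (SE 0.37, adjusted p = 0.000525, edgeR), and that between the changes over differentiation was 2.54 (SE 0.50, adjusted p = 0.00721, edgeR). The genotype difference of Cnn1 had the opposite sign to that of Acta2.

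Myh11 encodes the smooth muscle myosin heavy chain, the most restricted of these markers (XLOC_013914, chromosome 16, 14194620 to 14292967, minus strand). Its level was low throughout. It had 3.88, 2.01 and 3.31 CPM in wild-type stem cells and 1.44, 2.11 and 2.34 CPM in Notch1-/- ones. In the embryoid bodies it had 1.01, 1.07 and 0.863 CPM (wild type) and 1.11, 0.983 and 0.863 CPM (Notch1-/-). All 6 embryoid body libraries lay below all 6 stem cell libraries.

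Myh11 fell by 1.64 (SE 0.30, adjusted p = 0.00096, edgeR) in the wild type and by 0.99 (SE 0.30, adjusted p = 0.0206, edgeR) in Notch1-/- cells. The Notch1-/- call was lost without day 0 library 2 (-0.95) or 3 (-0.87) and without day 6 library 2 (-0.999) or 3 (-0.90), as well as on log2(FPKM + 1) (-0.11) and log2(FPKM + 0.1) values (-0.56). Genotypes gave 0.01 (SE 0.30) on day 6 (adjusted p = 0.991, edgeR). In the wild type Myh11 fell while Acta2 rose.

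Tagln encodes transgelin (SM22), an actin cross-linking protein that appears early in smooth muscle and also in the embryonic heart (XLOC_037284, chromosome 9, 45737711 to 45744141, minus strand). It had 0 counts in all 12 libraries because its exons lie wholly within those of Pcsk7 on the other strand, and without a stated strand setting the reads of both cannot be separated. By deposited FPKM it had 54.9, 64.1 and 83.8 in wild-type stem cells and 38.9, 52.6 and 31.0 in wild-type embryoid bodies. Notch1-/- stem cells gave 34.7, 76.4 and 73.2, and Notch1-/- embryoid bodies 37.7, 47.5 and 40.8. Pcsk7 had 3.66 to 5.45 FPKM across the libraries.

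On the log2(FPKM + 1) scale the wild-type change of Tagln was -0.72 (SE 0.29, adjusted p = 0.0672, limma) although the wild-type days did not overlap. The Notch1-/- change was -0.46 (SE 0.29, adjusted p = 0.253, limma). On day 6 the genotypes differed by 0.06 (SE 0.29, adjusted p = 0.906, limma), which was not called.

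Des encodes desmin, the intermediate filament protein of muscle and of many pericytes (XLOC_000282, chromosome 1, 75356919 to 75364290, plus strand). Wild-type stem cells gave 4.42, 3.82 and 3.27 CPM, and wild-type embryoid bodies 6.51, 5.67 and 3.48 CPM. Notch1-/- cells had 4.33, 1.45 and 2.25 CPM and then 4.59, 3.14 and 3.74 CPM. Groups overlapped in every comparison.

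No contrast called Des, with changes of 0.44 (SE 0.37, adjusted p = 0.349, edgeR) in the wild type and 0.51 (SE 0.37, adjusted p = 0.298, edgeR) in Notch1-/- cells. Without Notch1-/- day 0 library 1 the Notch1-/- change was called (1.04), as was the day 0 difference between genotypes (-1.05). Other loci shared 54.6% of its exon length, among them the antisense locus Gm15179, which had 0.554 to 3.20 CPM. Its counts therefore cover only part of the gene.

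Myocd encodes myocardin, the SRF coactivator of cardiac and smooth muscle genes (XLOC_005555, chromosome 11, 64990072 to 65083491, minus strand). Wild-type stem cells had 0.812, 0.341 and 0.388 CPM, and wild-type embryoid bodies 3.46, 3.08 and 4.57 CPM. Notch1-/- stem cells had 0.605, 0.246 and 0.2005 CPM, and Notch1-/- embryoid bodies 1.01, 0.913 and 0.752 CPM. Between 20 and 535 reads lay behind each value. Day 6 lay above day 0 in both genotypes, with no overlap.

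Myocd rose by 2.84 (SE 0.45, adjusted p = 0.000354, edgeR) in the wild type. The rise in Notch1-/- cells was 1.34 (SE 0.44, adjusted p = 0.0314, edgeR). It was 1.97 without day 0 library 1, and was not called without day 0 library 2 (1.13) or 3 (1.05), day 6 library 1 (1.26) or 2 (1.32), with only the 2 groups in the fit (1.32), or on log2(FPKM + 1) (0.09) and log2(FPKM + 0.1) values (0.57). On day 6 Notch1-/- cells were 4.16-fold lower (log2 -2.06, SE 0.43, adjusted p = 0.00398, edgeR). The difference between the changes was -1.50 (SE 0.61) and was not called (adjusted p = 0.141, edgeR), but was called with DESeq2 (-1.59) and on log2(FPKM + 1) (-0.38) and log2(FPKM + 0.1) values (-1.21). Without Notch1-/- day 0 library 1 it was -0.87 and not called.

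Rgs5 encodes a regulator of G protein signalling that is abundant in pericytes (XLOC_000649, chromosome 1, 171585316 to 171625921, plus strand). It had 1.33, 0.937 and 1.86 CPM in wild-type stem cells and 196, 212 and 115 CPM in wild-type embryoid bodies. Notch1-/- stem cells gave 1.20, 0.615 and 3.05 CPM, and Notch1-/- embryoid bodies 36.7, 50.4 and 8.90 CPM. Every embryoid body library lay above every stem cell library, and the wild-type ones above the Notch1-/- ones.

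The rise of Rgs5 was 6.98 (SE 0.75, adjusted p = 2.25e-05, edgeR) in the wild type, the largest change among the 9 genes in any of the comparisons. In Notch1-/- cells it was 4.31 (SE 0.66, adjusted p = 0.000406, edgeR), and 5.12 without day 0 library 3. On day 6 Notch1-/- cells were 5.44-fold lower (log2 -2.44, SE 0.60, adjusted p = 0.00946, edgeR). The difference between the changes was -2.68 (SE 0.85) and missed the threshold (adjusted p = 0.0598, edgeR). It was called with DESeq2 (-2.78), on log2(FPKM + 1) values (-2.44), with no filter on low counts (-2.69), without Notch1-/- day 0 library 1 (-2.87) or 2 (-3.09), and without day 6 library 2 (-3.18). Without Notch1-/- day 0 library 3 it was -1.86 and not called (adjusted p = 0.169, edgeR).

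Pdgfrb encodes the PDGF receptor of mural cells (XLOC_016857, chromosome 18, 61203706 to 61244721, plus strand). It had 48.5, 17.6 and 64.6 CPM in wild-type stem cells and 118, 125 and 79.4 CPM in wild-type embryoid bodies. The values in Notch1-/- stem cells were 18.1, 19.5 and 25.8 CPM, and in Notch1-/- embryoid bodies 19.04, 28.2 and 11.6 CPM. Wild-type embryoid bodies stood above all other libraries, while the days overlapped in Notch1-/- cells.

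Pdgfrb rose by 1.30 (SE 0.41, adjusted p = 0.0209, edgeR) in the wild type, a call that was lost without day 6 library 1 (1.25) or 2 (1.19). The Notch1-/- change was -0.11 (SE 0.40, adjusted p = 0.863, edgeR). It was 0.04 without day 0 library 3 and 0.17 without day 6 library 3. On day 6 Notch1-/- cells were 5.48-fold lower (log2 -2.45, SE 0.42, adjusted p = 0.00113, edgeR). The difference between the changes was -1.41 (SE 0.57) and was not called (adjusted p = 0.137, edgeR). At day 0 the Pdgfrb libraries of each genotype ranked in the order of the fibroblast list, whose part in the day 0 levels was not tested.

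Pdgfra encodes the other PDGF receptor, which is prominent in mesoderm and mesenchyme (XLOC_026863, chromosome 5, 75548316 to 75594240, plus strand). It had 14.7, 6.96 and 28.6 CPM in wild-type stem cells and 252, 241 and 159 CPM in wild-type embryoid bodies. Notch1-/- stem cells gave 8.04, 18.2 and 22.1 CPM, and Notch1-/- embryoid bodies 209, 174 and 79.3 CPM. Both genotypes rose without overlap, and on day 6 their ranges overlapped.

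The Pdgfra changes were 3.70 (SE 0.53, adjusted p = 0.00019, edgeR) in the wild type, and 4.32 without day 0 library 3, and 3.25 (SE 0.52, adjusted p = 0.000553, edgeR) in Notch1-/- cells. Genotypes differed by -0.50 (SE 0.48) on day 6, which was not called (adjusted p = 0.473, edgeR). On day 6 Pdgfrb was called lower in Notch1-/- cells and Pdgfra was not called. Whether the 2 receptor genes differed from each other was not tested. Deposited FPKM is listed at 0 for Pdgfra in wild-type day 6 libraries 1 and 3 and Notch1-/- day 6 library 1, which had 30475, 18653 and 23183 counts, so its FPKM values carry no weight here. As for Pdgfrb, the day 0 libraries of each genotype ranked in the order of the fibroblast list.

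Cspg4 encodes the NG2 proteoglycan, a pericyte surface marker that is also found on glial progenitors and fibroblasts (XLOC_036569, chromosome 9, 56712826 to 56751889, plus strand). It had 15.2, 19.5 and 26.4 CPM in wild-type stem cells and 2.50, 2.54 and 1.89 CPM in embryoid bodies. Notch1-/- stem cells gave 7.44, 15.1 and 24.1 CPM, and Notch1-/- embryoid bodies 1.503, 1.73 and 3.00 CPM. The falls were -3.14 (SE 0.41, adjusted p = 0.000101, edgeR) and -2.90 (SE 0.41, adjusted p = 0.000236, edgeR), and the days did not overlap in either genotype.

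In Notch1-/- stem cells Cspg4 was lowest in library 1 and highest in library 3, as was the fibroblast list (871 and 3432 CPM). In wild-type stem cells the orders differed, with Cspg4 lowest in library 1 and the list lowest in library 2. Genotypes differed by -0.15 (SE 0.39, adjusted p = 0.805, edgeR) on day 6. The 2 ranges of Cspg4 on day 6 overlapped, while those of the list did not. The part of fibroblast RNA in the day 0 levels was not tested.

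**Figure D3:**
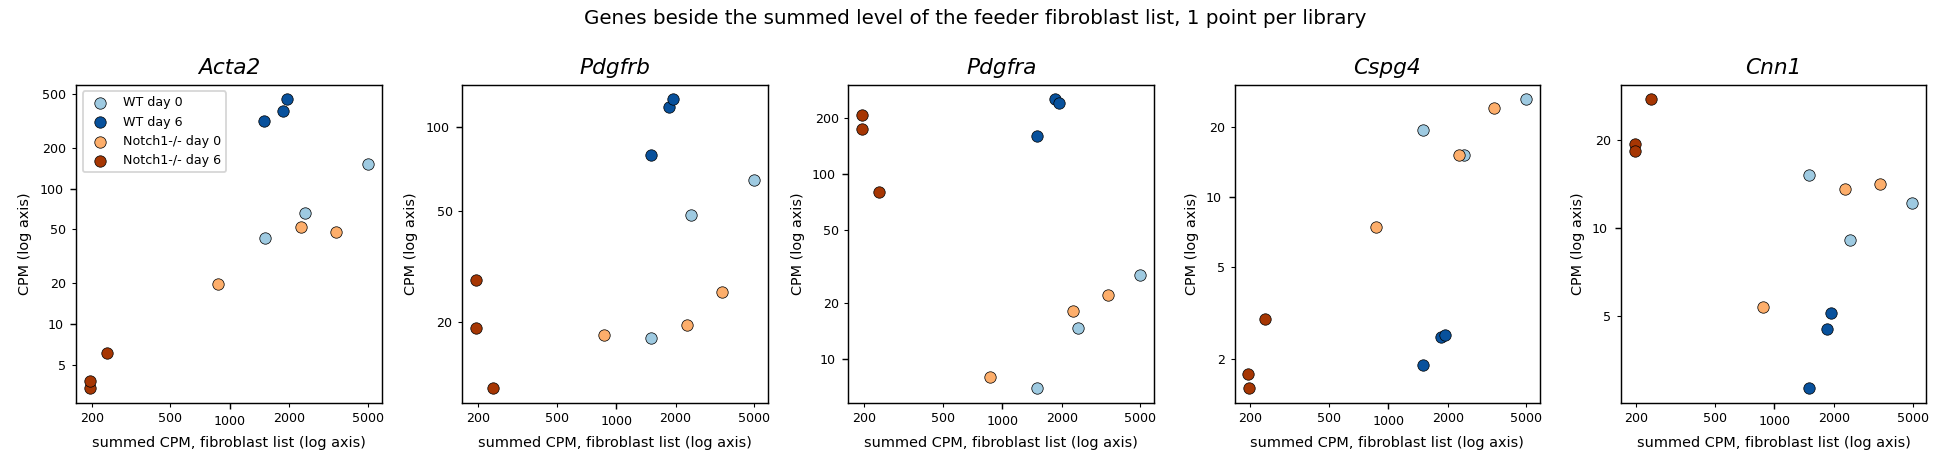
CPM of 5 of the genes against the summed CPM of 25 fibroblast genes, both on log axes, with 1 point per library coloured by group. In wild-type embryoid bodies, where the list summed to 1493 to 1937 CPM, Acta2, Pdgfrb and Pdgfra were above the day 0 libraries and Cspg4 and Cnn1 below them.

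At day 0, Notch1-/- and wild-type stem cells showed 0 called differences among the 9 genes (edgeR), against 3.71% of all loci higher and 5.86% lower. Acta2, Myh11 and Pdgfrb had an unadjusted p under 0.05, and DESeq2 called 0. The same 3 genes were called lower without wild-type day 0 library 2 (-1.43, -0.87 and -1.41), whose fibroblast list was the lowest of its group. The ranges of the genotypes overlapped for all 9 genes, while they did not overlap for 20.6% of all loci.

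On day 6, Notch1-/- embryoid bodies were lower in Acta2, Pdgfrb, Rgs5 and Myocd (4 of 9, with 14.4% of all loci lower) and higher in Cnn1 (1 of 9, with 13.7% of all loci higher). The same 5 genes had groups that did not overlap, as did 59.2% of all loci, so this count is near the background. Their calls held with each library left out in turn. Myh11, Pdgfra, Cspg4 and Des were not called. In the difference between the changes over differentiation, Acta2 (1 of 9, with 4.92% of all loci lower) and Cnn1 (1 of 9, with 6.36% higher) were called.

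Per kilobase of merged exon length, Acta2 led the 9 genes tested by counts in wild-type embryoid bodies, with 126 ± 22.9 CPM per kb. Tagln, with 0 counts, has no place in these orders. Rgs5 (37.6 ± 11.2), Pdgfra (23.7 ± 5.52) and Pdgfrb (19.1 ± 4.37 CPM per kb) followed. The spread of Pdgfra met those of both Rgs5 and Pdgfrb. Des (2.43 ± 0.729) and Cnn1 (0.855 ± 0.246 CPM per kb) were lower. The counts of Des cover only part of its exon length, so its value per kb is too low in every group. By deposited FPKM Des had 8.17 ± 2.36 and Pdgfrb 13.3 ± 2.86 in wild-type embryoid bodies. Myocd (0.562 ± 0.118), Cspg4 (0.143 ± 0.0225) and Myh11 (0.122 ± 0.0131 CPM per kb) came last, Cspg4 and Myh11 within their spread.

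In Notch1-/- embryoid bodies the order of these 9 genes began with Pdgfra (16.8 ± 7.32 CPM per kb), then Rgs5 (6.91 ± 4.57). Cnn1 (4.52 ± 1.05) and Pdgfrb (3.49 ± 1.48) came after them, and the spreads of neighbours met. Acta2 was sixth with 1.45 ± 0.492 CPM per kb, after Des (1.78 ± 0.340), whose value per kb is too low. By deposited FPKM Des had 5.23 ± 1.31 and Acta2 1.63 ± 0.576 in Notch1-/- embryoid bodies. Of the 9 genes, stem cells of both genotypes had Acta2 first (28.5 ± 18.8 and 13.1 ± 5.79) and Myocd last. Pdgfrb was next to Acta2 (7.73 ± 4.24 and 3.75 ± 0.724 CPM per kb). By deposited FPKM, the mean of Tagln was above that of Acta2 in stem cells. It was 67.6 ± 14.8 against 34.7 ± 22.9 in the wild type and 61.4 ± 23.2 against 14.3 ± 5.86 in Notch1-/- cells. Mean FPKM of Des was above that of Pdgfrb there, within their spread (6.36 ± 1.39 against 5.90 ± 3.30, and 4.23 ± 2.25 against 2.53 ± 0.495).

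Related genes were read from lists, whose counts stand against the shares of all loci: 18.4% higher and 24.7% lower over differentiation in the wild type, 17.2% and 18.7% in Notch1-/- cells, and 13.7% and 14.4% between genotypes on day 6. Of 20 other contractile genes 17 were tested. In the wild type 7 rose (41.2%) and 3 fell (17.6%; median 0.25), and in Notch1-/- cells 3 rose (17.6%) and 4 fell (23.5%; median -0.08), the latter shares near those of all loci. On day 6, 2 were higher (11.8%) and 7 lower (41.2%) in Notch1-/- cells (median -0.74 against 0.01 for all loci). Tpm1, a tropomyosin, rose in both genotypes, from 406 ± 78.8 to 1106 ± 82.0 CPM and from 336 ± 84.7 to 571 ± 43.1 CPM. Csrp1, a LIM protein of smooth muscle, rose by 1.397 (adjusted p = 4.16e-05, edgeR) in the wild type and had 155.8 to 221 CPM there on day 6 against 70.1 to 85.2 CPM in Notch1-/- cells.

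Cald1, caldesmon, rose by 0.87 in the wild type and fell by 0.83 in Notch1-/- cells (adjusted p = 0.0255 and 0.0365, edgeR), with a difference of -1.71 between the changes (adjusted p = 0.0172, edgeR). Itga8, an integrin of smooth muscle and mesenchyme, was not called in the wild type (0.27, adjusted p = 0.477, edgeR). It rose by 2.94 in Notch1-/- cells, to between 34.3 and 50.5 CPM against 8.84 to 14.03 CPM in wild-type embryoid bodies (difference between the changes 2.67, adjusted p = 0.00162, edgeR). Filip1l fell by 3.63 in Notch1-/- cells (adjusted p = 0.000318, edgeR). Lmod1, a leiomodin, fell in both genotypes (-1.81 and -1.04), and Synpo2 rose by 1.56 in the wild type.

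Of 20 regulators of smooth muscle genes, 12 were tested, and Srf was not among them because it was linked to no locus. In the wild type 7 rose (58.3%) and 2 fell (16.7%; median 1.44), and in Notch1-/- cells 2 rose (16.7%) and 4 fell (33.3%; median 0.34). On day 6, 0 were higher and 6 lower (50%) in Notch1-/- cells (median -1.14). Prdm6, a repressor in smooth muscle, had 139 to 179 CPM in wild-type and 11.4 to 47.0 CPM in Notch1-/- embryoid bodies, a difference that was not called (-2.29, adjusted p = 0.0584, edgeR). Its difference between the changes over differentiation was called (-4.92, SE 1.33, adjusted p = 0.0325, edgeR). That value rests in part on Notch1-/- stem cells, whose libraries ran from 0.0703 to 2.56 CPM.

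Hey2, a transcription factor induced by Notch in the arterial wall and heart, had 32.8 to 53.9 CPM in wild-type and 2.09 to 3.57 CPM in Notch1-/- embryoid bodies (-4.10, adjusted p = 1.95e-05, edgeR). Mef2c, a partner of myocardin in muscle, rose by 2.82 in the wild type and was lower by 3.01 on the log2 scale in Notch1-/- embryoid bodies, at 1.32 ± 0.315 against 10.6 ± 0.820 CPM. Mrtfb, a myocardin relative, differed less (-0.50, adjusted p = 0.0191, edgeR). Gata6 rose in both genotypes (5.26 and 4.11) and Klf4, a repressor of contractile genes and pluripotency factor, fell in both (-2.96 and -2.41).

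Of 20 other pericyte genes 19 were tested. In the wild type 5 rose (26.3%) and 3 fell (15.8%), and in Notch1-/- cells 4 rose (21.1%) and 5 fell (26.3%), shares not far from those of all loci (medians 0.03 and -0.14). On day 6, 2 were higher (10.5%) and 7 lower (36.8%) in Notch1-/- cells (median -0.41). Angpt1, the mural ligand of the endothelial receptor Tie2, had 12.8 to 18.2 CPM in wild-type and 0.0900 to 0.149 CPM in Notch1-/- embryoid bodies (-6.87, adjusted p = 5.83e-06, edgeR). Its difference between the changes was -7.63 (adjusted p = 0.000105, edgeR).

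Gucy1a1 rose in both genotypes (4.35 and 4.18), and Gucy1b1, which encodes the other subunit of the nitric oxide receptor, rose by 3.71 and 1.30. Rgs4, a relative of Rgs5, rose by 2.85 in the wild type. Nt5e, the ecto-nucleotidase CD73, went the way of Cnn1, with a fall of 1.96 in the wild type and a rise of 1.33 in Notch1-/- cells (difference 3.29, adjusted p = 0.00296, edgeR). Mcam fell in both genotypes (-1.77 and -1.40). Calls in this list went both ways in each genotype.

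In the PDGF pathway 13 of 15 genes were tested, with 7 rising (53.8%) and 3 falling (23.1%) in the wild type and 3 rising (23.1%) and 5 falling (38.5%) in Notch1-/- cells. On day 6, 0 were higher and 6 lower (46.2%) in Notch1-/- cells (median -0.57). Of the 4 ligand genes, Pdgfa, Pdgfb and Pdgfd were added after their values were seen. Pdgfa, the ligand of Pdgfra, had 66.0 ± 0.846 CPM in wild-type and 73.8 ± 26.5 CPM in Notch1-/- embryoid bodies. Pdgfc had 25.1 ± 5.65 and 8.83 ± 3.86 CPM (-1.51, adjusted p = 0.0104, edgeR), and Pdgfd had 1.28 ± 0.148 and 0.482 ± 0.0577 CPM (-1.41, adjusted p = 0.0815, edgeR). Pdgfb, the ligand of Pdgfrb, had under 1 CPM in all groups, but other loci shared 91.6% of its exon length, so its counts are unreliable. The coreceptor gene Nrp1 rose by 2.96 in the wild type and was lower by 2.30 on the log2 scale in Notch1-/- embryoid bodies (adjusted p = 0.0164, edgeR).

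TGF-beta genes, whose pathway induces Acta2 and Tagln in many cells, were tested for 12 of 13. In the wild type 7 rose (58.3%) and 3 fell (25%), in Notch1-/- cells 5 rose (41.7%) and 6 fell (50%), and on day 6, 0 were higher and 7 lower (58.3%) in Notch1-/- cells (median -0.75). Tgfb2 had 266 to 318 CPM in wild-type and 6.15 to 18.7 CPM in Notch1-/- embryoid bodies (-4.70, adjusted p = 3.98e-06, edgeR). Acvrl1, the endothelial type I receptor, had 30.2 to 49.98 and 1.75 to 3.21 CPM (-4.13, adjusted p = 7.42e-05, edgeR). Smad3 (-1.35), Smad7 (-1.19), Tgfbr1 (-0.73) and Smad2 (-0.51) were also lower there.

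**Figure D4:**
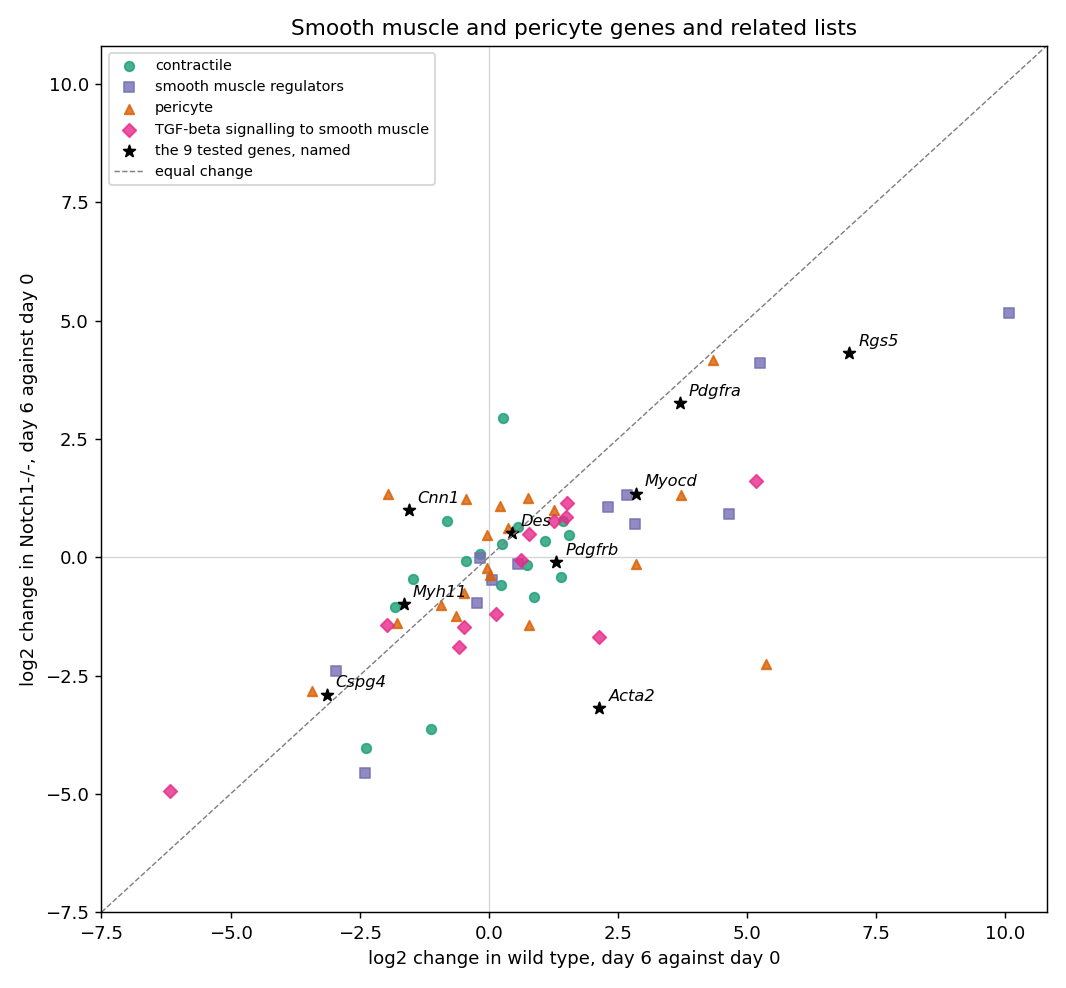
Log2 change from day 0 to day 6 in wild-type cells (x axis) against that in Notch1-/- cells (y axis) for the 9 tested genes (stars, named) and 4 lists of related genes (coloured symbols). The dashed line marks equal change. Acta2, at 2.14 and -3.18, lies far below it, and Cnn1, at -1.55 and 0.99, above it.

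Markers of other cell types moved with the genotype too. Of 12 endothelial genes 11 were tested, and their summed level was 514 to 696 CPM in wild-type and 210 to 468 CPM in Notch1-/- embryoid bodies. Of these, 7 were lower (Cdh5 by 5.31 on the log2 scale, adjusted p = 2.47e-06, edgeR), 0 higher and the others not called. Kdr (251 against 182 CPM) and Flt1 (131 against 111 CPM), which weigh most in the sum, rose in both genotypes and were not called on day 6. Of 17 cardiomyocyte genes 13 were tested, with summed levels of 57.8 to 64.2 and 55.7 to 63.7 CPM, 4 higher and 4 lower. Of 11 skeletal muscle genes 6 were tested, with 3 higher (Acta1, Myod1 and Pax7) and 1 lower (Pax3 by 2.81 on the log2 scale). The sum of the 10 linked ones was 2.73 to 3.00 CPM in wild-type and 8.68 to 10.3 CPM in Notch1-/- embryoid bodies. Acta1 alone had means of 1.13 and 8.64 CPM there and made up most of the Notch1-/- sum. Pax3 had means of 1.39 and 0.198 CPM. Of 13 genes of early mesoderm and primitive endoderm 7 were tested, with summed levels of 1553 to 1595 and 669 to 717 CPM, 2 higher and 4 lower. The lower ones were Sparc (845 against 329 CPM) and Lamb1 (448 against 272 CPM), which weigh most in the sum, and Dab2 and Lama1. The higher ones were the early mesoderm regulators T and Eomes (2.78 and 1.61 on the log2 scale). Both were low, at 1.09 and 0.550 CPM in Notch1-/- embryoid bodies, and other loci shared 86.9% and 78.8% of their exon length. The skeletal muscle factor Myod1, although called higher, stayed at or under 0.141 CPM in the mean of every group. Pax7, also called higher, had a mean of 0.410 CPM in Notch1-/- embryoid bodies, and other loci shared 88.1% of its exon length. The part of these cell types in the values of the 10 genes was not tested.

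Genes with the most similar pattern were sought for the 9 tested genes among 8112 or 8113 linked genes. These had an average abundance, as given by edgeR on the log2 CPM scale, of 2 or more. That value is not the mean of the log2 CPM of the libraries. Likeness was the root mean square difference of log2 CPM over the 12 libraries, after each gene's own mean was subtracted. Closest to Acta2 were Adam12, a metalloprotease of mesenchyme (0.56), Rhoj, a GTPase of endothelium (0.63), and Mecom (0.75). Adam12 had 33.1 CPM in wild-type and 0.379 CPM in Notch1-/- embryoid bodies. Closest to Cnn1 were Chst1 (0.28), Syp (0.35), which encodes synaptophysin, and Prelid3a (0.44).

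Rgs5 was most like Hand2os1 (0.56) and Fendrr (0.78), noncoding RNAs of the heart field and lateral mesoderm, and Bmp5 (0.85). Pdgfrb was most like Creb3l2 (0.39) and Scarf2 (0.39), and Pdgfra most like Pcdh18 (0.42), Rspo3 (0.45) and Sema6d (0.46). Myocd was closest to Zc3hav1l (0.37), Rasgef1b (0.37) and Kif21b (0.38), Myh11 to Ltbp3 (0.22), Cpne5 (0.30) and Wdtc1 (0.31), Cspg4 to Cpq (0.35), Slc41a2 (0.37) and Col16a1 (0.40), and Des to 2010001A14Rik (0.22), Rufy3 (0.25) and Rai1 (0.26).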

How the data were processed

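For each merged locus a raw count and an FPKM were deposited, with the exon positions of the merged models on mm9. Among the tools, per the submitters' processing notes, were HTSeq 0.5.4p3, Cufflinks 2.1.1, TopHat2 2.0.8 and DESeq. Roles, filters and strand setting were not given in those notes. Counts deposited by the authors are whole numbers. FPKM deposited by the authors is scaled by length and library. A locus wholly inside another can have 0 counts, as Tagln did.

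Symbols came from matching at least 2 exon-intron length pairs to GENCODE M21 genes on the same chromosome name and strand, with no coordinates converted. This linked 15795 loci to 1 gene, against 33 false links on another chromosome. The 10 genes had 6 to 84 matching pairs. The members and lists were chosen with earlier results of these data known.

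Counts were tested with edgeR 4.0.16 (R 4.3.3): TMM scaling, the default filter for expressed loci, 12 libraries in 1 fit with a mean per group, quasi-likelihood test, Benjamini-Hochberg adjustment over 23991 loci. The SE is the change divided by the square root of the F statistic. FPKM was tested with limma 3.58.1 on log2(FPKM + 1) for loci with at least 0.1 FPKM in 3 libraries. The tests were tried on simulated data. Replicates differed by far more than counting noise (chi-square per degree of freedom 41.3 to 404). Same-numbered libraries deviated together between genotypes at day 0 (correlations across loci 0.143 to 0.381, from the data, not the labels). They were 0.117 to 0.206 between wild-type day 0 and Notch1-/- day 6 and 0.0383 to 0.111 between wild-type day 6 and Notch1-/- day 0, which are not compared. The correlations were 0.0491 to 0.11 between the wild-type days and -0.0263 to 0.158 between the Notch1-/- days. Between genotypes on day 6 they were -0.0131 to 0.0895. Alternatives were DESeq2 1.42.0, upper quartile scaling, no filter, a replicate block, each library left out, FPKM, and only the 2 groups compared.

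Named genes were all 10 members, up to 4 genes per list with the smallest p in the wild-type day comparison and up to 4 in the interaction, and the 3 genes most like each member, of which 1 is not reported here. Actg2, Actc1, Pdgfa, Pdgfb, Pdgfd, Thbs2, Thy1 and Flt1 were added after their values were seen.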

Additional observations from a re-analysis of the deposited data

Results flagged for a closer look

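The change of Acta2 over differentiation differed between genotypes by the test of the difference itself (-5.33, SE 0.65, adjusted p = 0.000415, edgeR's quasi-likelihood test). It rose in wild-type and fell in Notch1-/- cells, and all 3 libraries of each embryoid body group lay beyond the stem cell libraries. That of Cnn1 differed in the opposite direction (2.54, SE 0.50, adjusted p = 0.00721, same test), with a fall in the wild type and a rise in Notch1-/- cells. The rise was the less stable part, as described above.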

How the results depend on the processing

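Of 188 alternative values of the 10 counts of called genes, 173 were equal to the count reported or within 1.5 times of it. The number higher at day 6 in Notch1-/- cells (4) was 2 with either FPKM scale and with only the 2 groups compared, and 2 to 4 with 1 library left out. The number lower in Notch1-/- stem cells (0) was 0 to 3 with 1 library left out. The number with a lower change in Notch1-/- cells (1) was 3 with DESeq2 and with log2(FPKM + 1), 2 with no filter and with log2(FPKM + 0.1), and 1 to 2 with 1 library left out. With the replicate block, the 9 genes gave 5 higher and 3 lower over differentiation in the wild type, 4 and 3 in Notch1-/- cells, 0 and 0 at day 0, 1 and 4 at day 6 and 1 and 1 in the interaction. The replicate block changed no call.

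Single genes changed sign mostly near 0. Pdgfra gave -1.43 in the wild type with log2(FPKM + 0.1), 0.88 and 1.92 on day 6 and 0.92 and 1.98 in the interaction with FPKM + 1 and + 0.1, where FPKM is listed at 0 in 3 libraries. At day 0 it gave 0.0246 with upper quartile scaling and 0.0153 with DESeq2 (-0.41 to 0.57 with 1 library left out), Rgs5 -0.00753 and -0.119 with FPKM + 1 and + 0.1 (-0.59 to 0.64), and Cnn1 -0.35 to 0.20. Myh11 on day 6 gave -0.0393 with DESeq2 and -0.000883 and -0.00568 with FPKM + 1 and + 0.1 (-0.0760 to 0.10). Des in the interaction gave -0.0185 with DESeq2 (-0.25 to 0.59). With 1 library left out, Pdgfrb in Notch1-/- cells ran from -0.47 to 0.17, and Cspg4 from -0.51 to 0.0452 on day 6 and -0.12 to 0.68 in the interaction. The cause was not tested.

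Upper quartile scaling moved the median of all loci by -0.16 in the wild type and -0.16 in Notch1-/- cells over differentiation, and changed the sign of no called gene. The fewest reads behind a value were 20 for Myocd, 70 for Rgs5 and 101 for Myh11.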
